A study of Homo sapiens and Mus musculus with 12 samples.

Results

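The transcripts of 5 transcription factors that act in the maturation of natural killer (NK) cells, T-BET, EOMES, ZEB2, BLIMP1 and HOBIT, were followed in 2 RNA-seq experiments on loss or inhibition of the histone methyltransferase EHMT2. They were chosen by symbol: Tbx21, Eomes, Zeb2, Prdm1 and Zfp683 are 5 of the 22021 genes of the mouse count table, and TBX21, EOMES, ZEB2, PRDM1 and ZNF683 are 5 of the 18304 genes of the human one. In mouse, CD3-NK1.1+ NK cells were sorted from the spleens of adult mice on a C57BL/6J background that were matched for age and sex. All of these mice carried Ehmt2 flox/flox. The 3 WT samples had no further allele, and the 3 KO samples also carried Ncr1-iCre, in which Cre recombinase is expressed under control of the NKp46 locus (Ncr1), so that deletion can begin only in cells that express it. The sample titles name EHMT2, whereas the genotype label of the KO samples reads Ezh2-KO, and samples were grouped by title. In human, NK92MI cells, a human NK line engineered to supply IL-2 to itself, were treated with BIX-01294, a small-molecule inhibitor of EHMT2, or with the solvent DMSO, with 3 libraries each. NK92MI is a transformed line and does not stand for primary NK cells. Nothing in the labels says that libraries of a group came from separate cultures or animals, so p-values measure only the spread between these samples.

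T-BET (Tbx21) and EOMES are related T-box factors that together establish and keep NK cell identity, and T-BET in particular drives the late stages at which NK cells gain CD11b and KLRG1. ZEB2, a zinc finger repressor that binds E-boxes, acts after T-BET in terminal maturation, while its paralog ZEB1 is linked with less mature lymphocytes. BLIMP1 (Prdm1) and its relative HOBIT (Zfp683 in mouse, ZNF683 in human) are zinc finger repressors, and BLIMP1, best known from plasma cells, is known to bind EHMT2, the enzyme that places repressive methyl groups on lysine 9 of histone H3.

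Total counts lay between 25891680 and 37438868 per mouse library and between 16579469 and 17165446 per human library, and levels are given as TMM-scaled CPM, the count of a gene per 1000000 counts of its library. Ehmt2 was counted at 275 to 286 CPM in WT and at 137 to 171 CPM in KO NK cells (log2 fold change -0.91, adjusted p = 0.0162 by edgeR). By Western blot, the study reported that deletion was complete at the protein level in splenic NK cells of KO mice. Counts per gene do not show which exons the remaining reads came from, and their source was not tested. EHMT2 mRNA was also lower in BIX-01294-treated NK92MI cells (log2 fold change -0.58, adjusted p = 0.000101 by edgeR). All 12 pan-NK genes, a list of NK cell identity and effector genes, were counted in every library, and they took 0.577%, 0.932% and 0.586% of the counts in WT replicates 1 to 3 but 1.08% to 1.23% in KO. WT replicate 2, the library with the lowest total, thus stood apart from the other WT libraries. Bulk counts cannot tell apart fewer cells of a type and less RNA per cell.

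To ask whether Ehmt2 loss altered the factors that drive maturation, KO was compared with WT. Tbx21 rose in KO NK cells to 1.86-fold its WT level, and it was the member that passed the test, at an adjusted p under 0.05 in edgeR's quasi-likelihood test. Eomes had nearly as large a difference but missed the threshold, and Zeb2, Prdm1 and Zfp683 differed by less than 0.20 on the log2 scale, with intervals that included 0. Thus 1 of 5 members rose, against 4.44% of the 13189 genes tested, and 0 of 5 fell, against 7.43% of them. At an unadjusted p under 0.05, edgeR found 2 members higher and 0 lower, against 4719 of all 13189 genes tested in either direction. The 2 of 5 members were thus near the share of all genes. DESeq2, which called more genes in all than edgeR (given at the end), called 2 members higher and 0 lower.

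The Tbx21 gene spans chr11:97098071-97115331 (GRCm38, minus strand). Its level was 284, 443 and 292 CPM in WT replicates 1 to 3 and 546, 707 and 643 CPM in KO replicates 1 to 3. Every KO library was above every WT library, and the lowest KO library exceeded WT replicate 2, the highest WT library. The log2 fold change was 0.90 (standard error 0.19, 95% interval 0.458 to 1.336, adjusted p = 0.0368 by edgeR). A two-sided exact permutation test gave p = 0.1, the smallest that 3 against 3 libraries allow. Groups that did not overlap in either direction were found for 38.5% of all genes tested and for 1 of the 5 members. The call on Tbx21 was lost without KO replicate 2 (adjusted p = 0.146 by edgeR), without KO replicate 3 (0.14), without WT replicate 1 (0.0953) and without WT replicate 3 (0.125). DESeq2 with the thresholds of the study called Tbx21 (log2 fold change 0.89, adjusted p = 6.42e-05), and edgeR with those thresholds did not. Over all alternatives its adjusted p ran from 6.42e-05 to 0.553.

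Eomes, the second T-box factor, spans chr9:118478212-118486132 (plus strand). It was counted at 308, 649 and 377 CPM in WT and at 607, 824 and 799 CPM in KO replicates 1 to 3. WT replicate 2 was above KO replicate 1, so the groups overlapped, and the other libraries were separated. The change in Eomes was 0.74 on the log2 scale (standard error 0.27, 95% interval 0.117 to 1.368, adjusted p = 0.0962 by edgeR). DESeq2 gave an adjusted p of 0.0166, and without WT replicate 2 edgeR gave a log2 fold change of 1.12 with an adjusted p of 0.00445.

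Zeb2 spans chr2:44983632-45117395 (minus strand). It had 159, 139 and 148 CPM in WT and 153, 160 and 183 CPM in KO NK cells. The groups overlapped, since WT replicate 1 was above KO replicate 1. Its log2 fold change was 0.16 (standard error 0.10, 95% interval -0.064 to 0.38, adjusted p = 0.267 by edgeR). Its paralog Zeb1 had a log2 fold change of 0.06 (adjusted p = 0.738 by edgeR).

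Prdm1, which encodes BLIMP1, spans chr10:44437177-44528501 (minus strand). It was counted at 48.8, 62.1 and 44.9 CPM in WT and at 51.1, 58.8 and 66.7 CPM in KO NK cells, and the groups overlapped because WT replicate 2 exceeded the lower KO libraries. Its log2 fold change was 0.18 (standard error 0.15, 95% interval -0.162 to 0.526, adjusted p = 0.404 by edgeR). Zfp683, the gene of HOBIT, at chr4:134053838-134058996 (plus strand), had 17.9, 15.2 and 11 CPM in WT and 16.3, 21.1 and 12.3 CPM in KO NK cells. It rested on 393 to 785 counts per library, and its groups overlapped over most of their range. The log2 fold change of Zfp683 was 0.17 (standard error 0.24, 95% interval -0.379 to 0.726, adjusted p = 0.623 by edgeR).

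**Figure D1:**
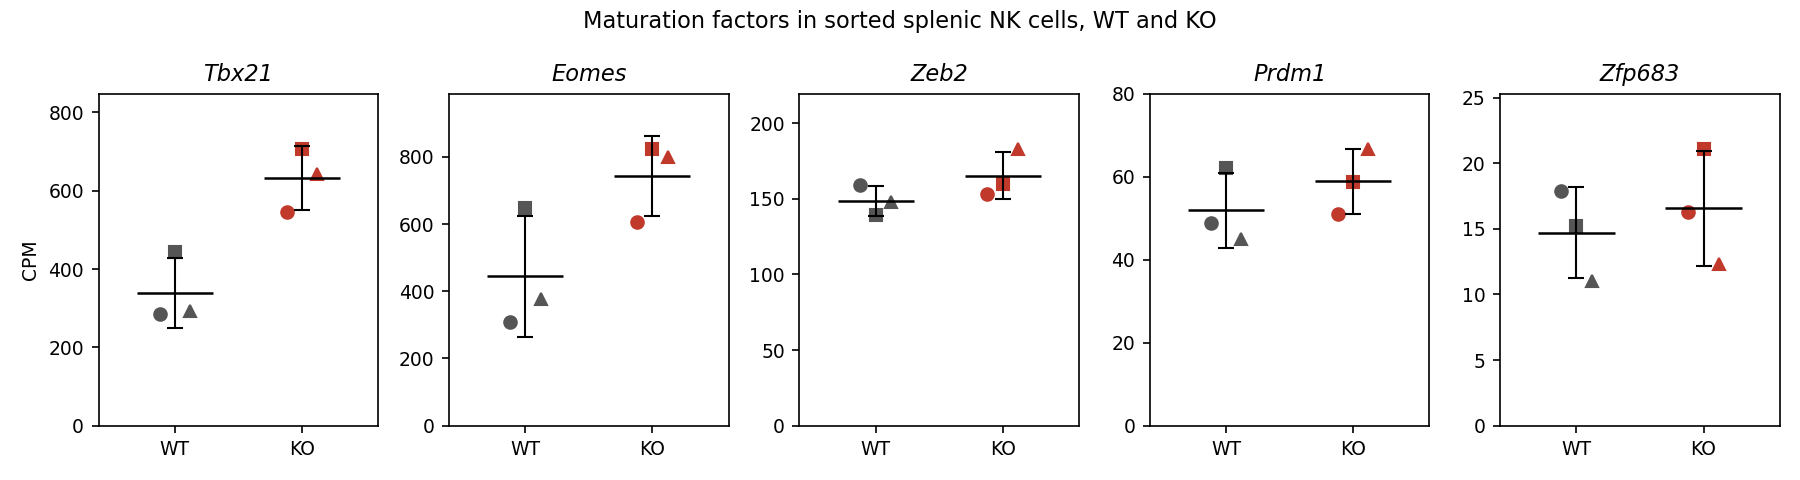
Level of each maturation factor in CPM (vertical axes, from 0) in the 3 WT and 3 KO mouse libraries, with circles, squares and triangles for replicates 1, 2 and 3, a horizontal bar for the mean and error bars for the SD. Tbx21 is the member whose groups do not overlap, with 284 to 443 CPM in WT and 546 to 707 CPM in KO, and WT replicate 2 is the highest WT library for Tbx21, Eomes and Prdm1.

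Per kilobase of the principal transcript, the T-box factors stood far above the other members in WT NK cells. Tbx21 was at 136 ± 35.9 CPM per kb (SD, n = 3) and Eomes at 125 ± 50.7 CPM per kb, and these neighbours did not differ beyond their spread. Zeb2 (16.3 ± 1.09 CPM per kb), Prdm1 (12.9 ± 2.24) and Zfp683 (10.0 ± 2.35) followed, each overlapping the next. In KO NK cells the order was the same, with Tbx21 at 254 ± 32.7, Eomes at 209 ± 33.4, Zeb2 at 18.1 ± 1.69, Prdm1 at 14.6 ± 1.94 and Zfp683 at 11.3 ± 3.02 CPM per kb. Here Zeb2 and Prdm1 did not overlap, whereas Tbx21 and Eomes did, as did Prdm1 and Zfp683. The order of the lower 3 members depended on the length used. With the union of all annotated exons, Zfp683 (10.0 CPM per kb in WT) came before Prdm1 (9.30) and Zeb2 (7.43). At that length Tbx21 (254 CPM per kb) and Eomes (179) did not overlap in KO, whereas Prdm1 and Zeb2 did.

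Ratios between genes within a library do not depend on how libraries are scaled. The log2 ratio of Eomes to Tbx21 was 0.11, 0.55 and 0.37 in WT and 0.15, 0.22 and 0.31 in KO replicates, a difference of -0.12 with overlapping groups. The ratios of Zfp683 to Prdm1 and of Zeb2 to Zeb1 differed by -0.02 and 0.10 and also overlapped. Set against the geometric mean of the pan-NK list, the members fell into different patterns. Tbx21 was at -0.33 ± 0.03 (SD, n = 3) in WT and at -0.18 ± 0.08 in KO, higher in 3 of 3 KO libraries by 0.15 on the log2 scale. Eomes differed by 0.04, from 0.01 ± 0.19 to 0.05 ± 0.11. Relative to the same genes, Zeb2 was lower in KO by 0.61 (difference -0.61) and Prdm1 by 0.58 (difference -0.58), both without overlap, and Zfp683 differed by -0.60 with overlap. The separation of Zeb2 was thin, since its ratio in WT replicate 2 and the highest KO ratio were both -2.04 at 2 decimals. Each of the 3 ratios without overlap had p = 0.1 in the two-sided exact permutation test and an adjusted p of 0.267 over the 8 ratios, and 3 against 3 libraries cannot go below 0.1 before adjustment. The share of all genes whose ratio to the pan-NK list separates the groups was not computed.

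Levels of markers of other cell types moved with genotype in these libraries. Of all genes tested, 4.44% rose and 7.43% fell in KO. All 10 macrophage and monocyte markers were lower in KO, with sums of 2610 to 6830 CPM in WT and 1390 to 2550 CPM in KO, and 5 of them passed the test. The 8 dendritic cell markers summed to 373 to 630 CPM in WT and 165 to 306 CPM in KO, and 2 passed. The 8 B cell markers summed to 501 to 1400 CPM in WT and 92.6 to 464 CPM in KO, and the 8 plasma cell markers to 296 to 995 CPM and 213 to 342 CPM. All 16 of these were lower in KO, with 1 plasma cell marker past the threshold in edgeR's test (5 in DESeq2), and 0 B cell markers in either tool although 7 had an unadjusted p under 0.05. Erythroid markers (7 of 7 fell) went from 211 to 351 CPM in WT to 95.1 to 128 CPM in KO, and neutrophil markers from 158 to 1270 CPM to 29.3 to 177 CPM. The plasma cell and neutrophil sums overlapped between the groups, with KO replicate 1 above WT replicate 2. KO replicate 1 stood apart from KO replicates 2 and 3 in B cell (464 against 109 and 92.6 CPM) and neutrophil sums (177 against 29.3 and 30.5 CPM). T cell markers (176 to 256 CPM in WT, 139 to 234 CPM in KO) and markers of ILC1, innate lymphoid cells close to NK cells (222 to 305 CPM and 228 to 258 CPM), also overlapped between the groups. Of the T cell markers 5 of 8 had lower values in KO, while Cd3g rose by 0.59 and Cd28 by 0.66 (adjusted p = 0.0452 and 0.0421 by edgeR). This pair of genes was chosen after seeing the values. No listed marker was at 0 in all mouse libraries. Zeb2 is also expressed in macrophages and dendritic cells, and Prdm1 in plasma cells and macrophages. The part of these cells in the values of the members was not tested.

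**Figure D2:**
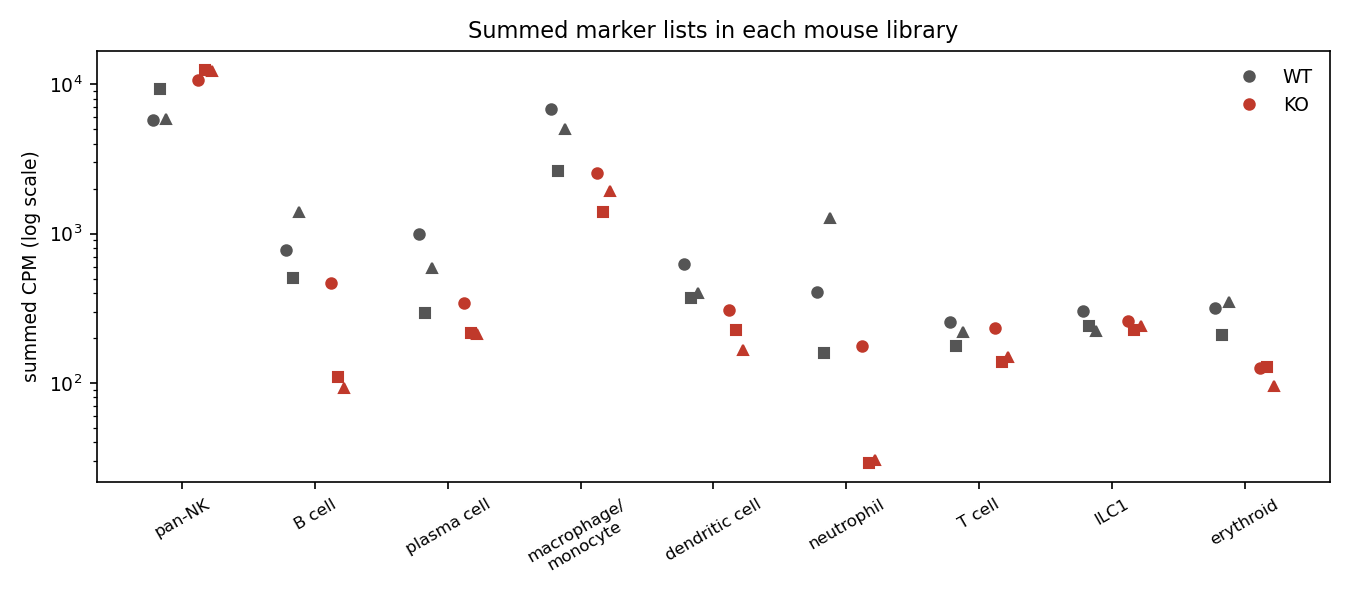
Summed CPM (vertical axis, log scale) of each marker list in the 3 WT and 3 KO mouse libraries, with circles, squares and triangles for replicates 1, 2 and 3. The pan-NK sum is higher in all KO libraries (10700 to 12400 CPM against 5770 to 9360 CPM), and the macrophage and monocyte sum is lower (1390 to 2550 CPM against 2610 to 6830 CPM).

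Among genes of late maturation, 7 of 11 rose in KO NK cells and 0 fell, against 4.44% and 7.43% of all genes tested. Their median log2 fold change was 0.72, and that of all genes tested was 0.01. Klrg1, a receptor of terminally mature NK cells, rose by 0.95 (standard error 0.10, adjusted p = 0.0162 by edgeR) and Itgam, which encodes CD11b, by 0.62. Ifng rose by 1.07 and S1pr5, the receptor that lets mature NK cells leave the bone marrow, by 0.97. Of 12 genes of early maturation, 1 rose (the chemokine gene Xcl1, by 0.81) and 0 fell, with a median of 0.31, and Gpr183 was at -0.74 (adjusted p = 0.0548 by edgeR). Scaled to the pan-NK genes, whose own list median was 0.75, 0 late genes rose and 1 fell, and 0 early genes rose and 4 fell. The scaling sets the summed pan-NK list, which includes the late genes Gzma and Prf1, to the same level in all libraries. It therefore takes out part of any rise of late genes and also lowers the median of all genes, as given below. The late genes that rose were 10 and the early genes that rose 6 without WT replicate 2, and at most 1 late gene and 0 early genes rose without WT replicate 1, WT replicate 3, KO replicate 2 or KO replicate 3. Without any 1 of the latter libraries, few or no genes passed among all genes tested, as given at the end. Without KO replicate 1, 7 late genes rose, and 0 early genes rose and 2 fell. In all 6 libraries, 4719 of the 13189 genes tested had an unadjusted p under 0.05 in edgeR. At that level edgeR found 10 late genes higher and 0 lower, and 3 early genes higher and 2 lower. DESeq2, whose total of genes called is given at the end, called 10 late genes higher and 0 lower and 2 early genes in each direction.

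The counts of the next lists stand beside 4.44% of all genes tested that rose in KO and 7.43% that fell. Of 11 genes that BLIMP1 or HOBIT are known to repress, 0 rose and 2 fell in KO NK cells (median -0.39). These were Ciita, the switch of MHC class II genes (log2 fold change -1.10), and Spib (-1.27), both also expressed in B cells and dendritic cells, whose markers were lower in KO as given above. Of 18 regulators upstream of the members, 2 rose, Id2 by 0.89 and Nfil3 by 0.65, both needed for the NK lineage, and 0 fell, with a median of 0.25. Of 14 genes of the cytokine inputs, 2 rose, the kinase gene Jak3 by 0.72 and the shared receptor chain gene Il2rg by 0.47, and 0 fell, with a median of 0.56. Of 16 partners and corepressors, Ehmt2 itself and Ctbp2 (-0.43), the gene of a corepressor that ZEB proteins bind, fell and 0 rose, with a median of 0.08. Among 12 tested T-box, ZEB and PRDM paralogs 1 fell, Prdm16 (-1.52), and 0 rose, with Prdm15 at 0.35 (adjusted p = 0.0898 by edgeR) and a list median of 0.16. The pan-NK list, which shares Gzma and Prf1 with the late genes, had 7 of 12 genes that rose and 0 that fell, among them Klre1 by 0.84, Klrk1 by 0.87, Klrd1 by 0.84 and Cd7 by 0.67, with a list median of 0.75. In edgeR, 4719 of the 13189 genes tested had an unadjusted p under 0.05. At that level edgeR found 8 cytokine inputs and 11 pan-NK genes higher and 0 lower, and 7 upstream regulators higher and 2 lower. It found 1 repressed gene higher and 8 lower, 1 partner higher and 2 lower, and 3 paralogs higher and 1 lower. DESeq2, whose total is given at the end, called 0 repressed genes higher and 4 lower and 6 upstream regulators higher and 1 lower. It called 8 cytokine inputs higher and 0 lower and 10 pan-NK genes higher and 0 lower. It called 0 higher and 2 lower among the partners and 0 higher and 1 lower among the paralogs.

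These counts depended on the libraries and the scaling. Without WT replicate 2, 3 repressed genes rose and 6 fell, 8 upstream regulators rose and 0 fell, 9 cytokine inputs rose and 1 fell, 3 partners fell and 12 pan-NK genes rose. Without KO replicate 1, 6 repressed genes fell, 5 upstream regulators and 4 cytokine inputs rose, 1 partner rose and 1 fell, and 0 paralogs passed. Without WT replicate 1 the partners had 1 gene that fell and the other lists of this paragraph none, and without WT replicate 3, KO replicate 2 or KO replicate 3 no gene of these lists passed. Few or no genes passed among all genes tested under these settings, as given at the end. Scaled to the pan-NK genes, which lowered the median of all genes to -0.799, 0 genes of these lists rose, while 8 repressed genes, 10 upstream regulators, 5 cytokine inputs, 15 partners and 6 paralogs fell. With the stricter thresholds of the study, which ask for an adjusted p below 0.01 and a change of over 0.5 on the log2 scale, edgeR called 0 mouse genes, whereas DESeq2 called 401 higher and 1099 lower.

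The genes whose log2 CPM followed each member most closely over the 6 mouse libraries are given as a description, since the libraries share genotype and scaling. Those close to Tbx21 included AI837181 (Pearson r = 0.999) and Ptpn7 (0.9989), and 722 of 13188 genes had r above 0.95. Eomes was followed by Lrrfip2 (0.9987), Atp8b4 (0.9982) and Zmym5 (0.9978), and 595 genes exceeded 0.95. Far fewer genes tracked the other members, with 10 for Zeb2 (led by Snx18, Csnk2a1 and Calu), 66 for Prdm1 (led by Prune, Lcorl and Zbtb16) and 6 for Zfp683 (led by Tmed9, Kif5c and Aim1l).

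To ask what chemical inhibition did to the same factors, BIX-01294-treated NK92MI cells were compared with DMSO. All 5 members passed the test, in both directions. ZEB2 rose to 1.74-fold and PRDM1 to 1.40-fold their level in DMSO, whereas ZNF683 fell to 0.353, TBX21 to 0.725 and EOMES to 0.890 of theirs. Thus 2 of 5 members rose, where 18.4% of the 12727 genes tested did, and 3 of 5 fell, where 18.4% did. The groups did not overlap for 5 of 5 members and for 47.9% of all genes tested, and each member had p = 0.1 in a two-sided exact permutation test. With the thresholds of the study, edgeR called ZEB2 higher and ZNF683 lower and no other member.

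TBX21 spans chr17:47733236-47746122 (GRCh38, plus strand). It was counted at 226, 244 and 227 CPM in DMSO and at 171, 162 and 173 CPM after BIX-01294, so that the groups were separated by more than the spread within either. The change in TBX21 was -0.46 on the log2 scale (standard error 0.06, 95% interval -0.599 to -0.329, adjusted p = 7.61e-05 by edgeR). EOMES, at chr3:27715949-27722711 (minus strand), had 174, 180 and 166 CPM in DMSO and 153, 154 and 157 CPM after BIX-01294, close together but without overlap. The log2 fold change of EOMES was -0.17 (standard error 0.06, 95% interval -0.299 to -0.037, adjusted p = 0.0441 by edgeR). This call was lost in 10 of 16 alternatives. DESeq2 gave EOMES an adjusted p of 0.0654, and with 1 library left out edgeR gave 0.0529 without BIX-01294 replicate 2, 0.17 without BIX-01294 replicate 1 and 0.0583 to 0.141 without a DMSO library. Without BIX-01294 replicate 3 EOMES still passed.

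ZEB2 spans chr2:144364364-144521057 (minus strand). Its level was 29.7, 32.1 and 31.9 CPM in DMSO and 57.3, 55.7 and 49.7 CPM after BIX-01294, and every treated library was well above the controls. The log2 fold change was 0.80 (standard error 0.08, 95% interval 0.617 to 0.977, adjusted p = 8.94e-06 by edgeR), the same side of the threshold in 16 of 16 alternatives. ZEB1, its paralog, also rose, by 0.29 (standard error 0.09, adjusted p = 0.0166 by edgeR).

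PRDM1 spans chr6:105993463-106109939 (plus strand). Its level was 189, 175 and 183 CPM in DMSO and 268, 268 and 227 CPM after BIX-01294, with BIX-01294 replicate 3 nearest to the controls. Its log2 fold change was 0.48 (standard error 0.07, 95% interval 0.322 to 0.639, adjusted p = 0.000212 by edgeR). PRDM1 overlaps ATG5 on the opposite strand, and without a stated strand setting reads from the overlap cannot be told apart. ATG5 had 1583 to 1867 counts per library and a log2 fold change of 0.12 (adjusted p = 0.179 by edgeR).

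ZNF683, the HOBIT gene, spans chr1:26361634-26374522 (minus strand). It was the member with the fewest counts, 143, 191 and 145 in the DMSO libraries and 63, 59 and 44 after BIX-01294, which came to 8.32, 11.2 and 8.58 CPM and to 3.84, 3.47 and 2.60 CPM. All treated libraries lay below all controls. Its log2 fold change was -1.50 (standard error 0.19, 95% interval -1.904 to -1.101, adjusted p = 3.86e-05 by edgeR) and kept its side of the threshold in 16 of 16 alternatives. BLIMP1 and HOBIT transcripts thus moved in opposite directions in the treated cells.

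**Figure D3:**
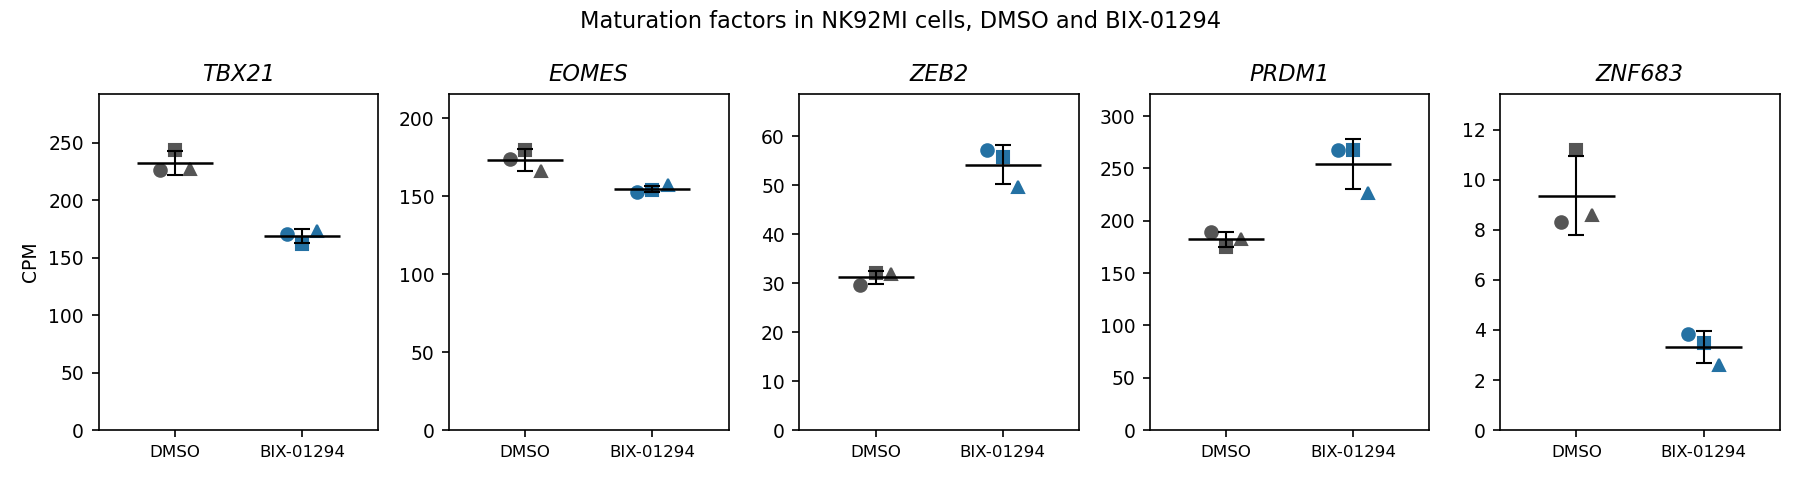
Level of each maturation factor in CPM (vertical axes, from 0) in the 3 DMSO and 3 BIX-01294 libraries of NK92MI cells, with a horizontal bar for the mean and error bars for the SD; marker shapes tell libraries apart and carry no pairing. No member overlaps between the groups, with ZEB2 and PRDM1 higher and TBX21, EOMES and ZNF683 lower after BIX-01294.

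The stretches just before the human transcription starts are shown because members that rose and members that fell under the same inhibitor can be compared in them. RefSeq promoters on GRCh38.p14 were matched for all 5 human members, and the 250 bases before the start were read from each. PRDM1 and ZNF683 have 2 starts each among these promoters, and the one farther upstream was used. The windows of PRDM1, ZNF683, EOMES and ZEB2 lie inside the GENCODE gene spans given above, so GENCODE places a start of these genes farther upstream. Windows that lie in annotated exons, those of EOMES and ZEB2, are not shown whole, and that of PRDM1 ends 16 bases before the start. Capitals mark CG dinucleotides, the sites of DNA methylation.
TBX21, chr17:47732986-47733235, plus strand: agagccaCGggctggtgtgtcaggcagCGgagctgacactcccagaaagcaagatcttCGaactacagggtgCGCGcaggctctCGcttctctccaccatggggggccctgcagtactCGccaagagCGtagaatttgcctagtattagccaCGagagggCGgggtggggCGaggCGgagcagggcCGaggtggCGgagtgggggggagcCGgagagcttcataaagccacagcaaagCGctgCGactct
ZNF683, chr1:26372795-26373044, minus strand: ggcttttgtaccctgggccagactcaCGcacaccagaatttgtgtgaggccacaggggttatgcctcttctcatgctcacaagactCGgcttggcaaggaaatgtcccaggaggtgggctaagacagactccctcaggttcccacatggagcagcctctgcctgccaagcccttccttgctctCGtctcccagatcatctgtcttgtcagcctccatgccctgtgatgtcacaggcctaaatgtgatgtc
PRDM1, chr6:106086086-106086319, plus strand: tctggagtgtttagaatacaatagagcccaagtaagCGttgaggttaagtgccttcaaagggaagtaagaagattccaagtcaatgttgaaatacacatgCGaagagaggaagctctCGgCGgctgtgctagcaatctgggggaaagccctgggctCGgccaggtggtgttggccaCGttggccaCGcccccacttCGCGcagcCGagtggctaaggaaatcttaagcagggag
TBX21 had 17 CG dinucleotides in its 250 bases, more than 61.0% of the 35116 promoters, and EOMES had 19. ZEB2 had 12 and PRDM1 11, close to the median of 11 over all promoters, while ZNF683 had 3, and only 22.9% of promoters had fewer. The GC content ran from 48.0% in ZEB2 to 63.2% in TBX21, with a median of 58.0% over all promoters. The members that fell thus included both the richest and the poorest window in CG.

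Motifs known for these factors or their regulators were searched on both strands of the windows. The ZEB E-box CACCTG, read on the opposite strand as the capitals shown, was present in 17.5% of all promoters and was found in those of EOMES and PRDM1, with its first base 109 and 90 bases before the start (positions -109 and -90). The 30 bases around each match are shown with the E-box in capitals, since ZEB2 is itself a member.
EOMES, chr3:27722415-27722444, minus strand: cccgcgagtcggCAGGTGggtagccccggc
PRDM1, chr6:106086234-106086263, plus strand: cctgggctcggcCAGGTGgtgttggccacg
The T-box motif GGTGTGA (in 2.76% of all promoters), the BLIMP1 motif GTGAAAG (3.28%), the RUNX motif TGTGGT (11%) and the STAT motif TTCNNNGAA (6.57%) were not in any of the 5 windows. None of these motifs overlaps another at the matches found, and a match is a description of letters, not a bound site.

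**Figure D4:**
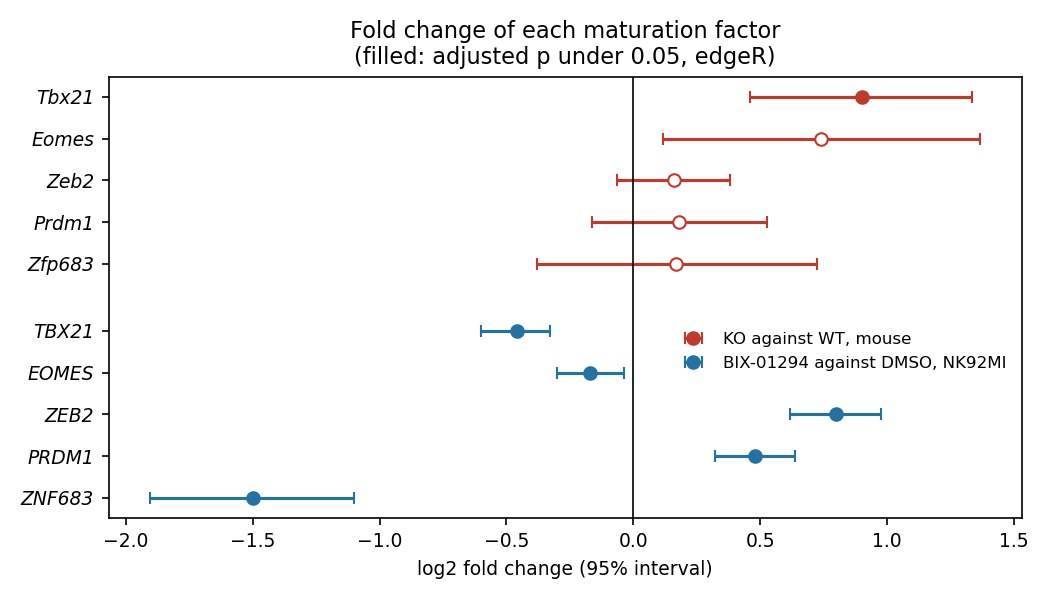
Log2 fold change of each member (horizontal axis) with its 95% interval, for KO against WT in mouse NK cells (red) and BIX-01294 against DMSO in NK92MI cells (blue); filled points have an adjusted p under 0.05 by edgeR. In mouse Tbx21 is filled at 0.90, and in NK92MI cells the members spread from -1.50 (ZNF683) to 0.80 (ZEB2).

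Per kilobase of the principal transcript, TBX21 was the most abundant member in DMSO-treated NK92MI cells at 90.0 ± 3.80 CPM per kb (SD, n = 3), before EOMES at 53.2 ± 2.19, PRDM1 at 35.4 ± 1.38, ZNF683 at 5.47 ± 0.919 and ZEB2 at 3.37 ± 0.145, and no neighbours overlapped. After BIX-01294, TBX21 was at 65.2 ± 2.36, PRDM1 at 49.4 ± 4.60, EOMES at 47.4 ± 0.585, ZEB2 at 5.85 ± 0.432 and ZNF683 at 1.93 ± 0.371 CPM per kb. PRDM1 and EOMES then overlapped, and ZEB2 stood above ZNF683 in place of below it. The place of PRDM1 depended on the length used. With the union of all annotated exons, EOMES (42.3 CPM per kb after BIX-01294) stayed above PRDM1 (37.7) without overlap.

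All 8 within-library ratios separated the treated from the control libraries, with p = 0.1 each in the two-sided exact permutation test and an adjusted p of 0.1. All 5 members had already not overlapped between these libraries, as 47.9% of all genes tested had not. The ratios are therefore not separate evidence, and no share of separated ratios over all genes was computed. The log2 ratio of ZNF683 to PRDM1 went from -4.29 ± 0.29 (SD, n = 3) in DMSO to -6.27 ± 0.16 after BIX-01294, a difference of -1.98. The ratio of ZEB2 to ZEB1 was higher by 0.50, from -0.14 ± 0.12 to 0.37 ± 0.13, and that of EOMES to TBX21 by 0.30, from -0.42 ± 0.04 to -0.12 ± 0.05. Against the pan-NK genes, whose share of counts was 0.528% to 0.555% in DMSO and 0.657% to 0.784% after BIX-01294, the differences were -0.61 for TBX21, -0.31 for EOMES, 0.65 for ZEB2, 0.33 for PRDM1 and -1.65 for ZNF683. Marker counts stand beside 18.4% of all genes tested that rose and 18.4% that fell. Macrophage and monocyte markers, of which 4 of 10 are listed in the human table, summed to 3.68 to 5.06 CPM in DMSO and 8.97 to 10.2 CPM after BIX-01294, and both tested ones rose. B cell markers summed to 17.5 to 20.1 CPM and 28.6 to 32.3 CPM, with 2 of 3 tested that rose, and ILC1 markers to 668 to 713 CPM and 878 to 1000 CPM, with 2 of 5 tested that rose and 1 that fell. Plasma cell markers summed to 349 to 367 CPM and 416 to 420 CPM, but 3 of 4 tested fell and 1 rose, with a median log2 fold change of -0.88. T cell markers summed to 501 to 519 CPM and 541 to 617 CPM, with 1 of 3 tested that rose. The part of these genes in the values of the members was not tested.

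**Figure D5:**
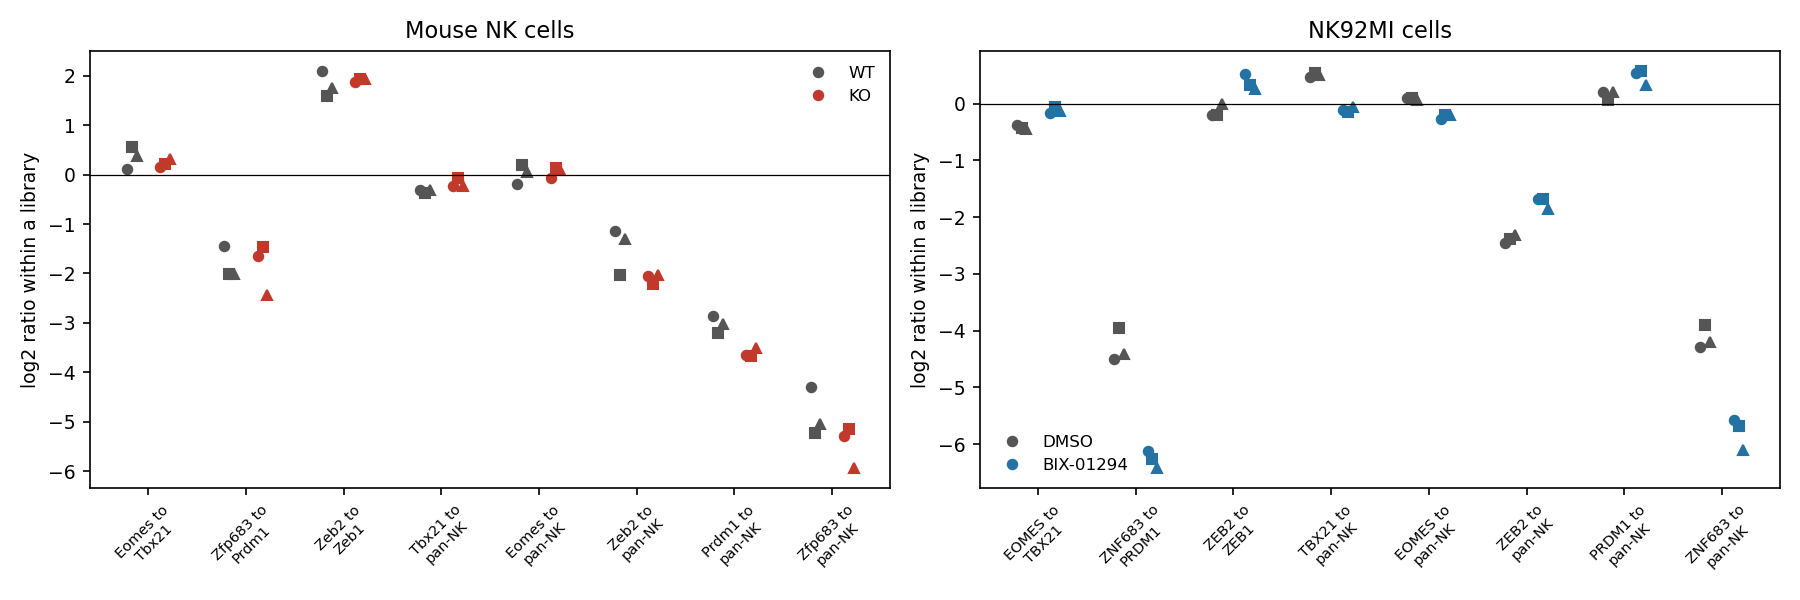
Log2 ratio of each member to another gene or to the geometric mean of the pan-NK list within each library (vertical axes), for WT and KO mouse libraries on the left and DMSO and BIX-01294 libraries on the right. In mouse 3 of 8 ratios do not overlap between the groups (Tbx21, Zeb2 and Prdm1 to pan-NK), and in NK92MI cells 8 of 8 do not, the largest difference being -1.98 for ZNF683 to PRDM1.

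Of the 10 tested genes of late maturation, 8 rose after BIX-01294 and 0 fell, where 18.4% of all genes tested did in each direction. Their median log2 fold change was 0.77, against -0.01 for all genes tested. IFNG rose by 2.71 (standard error 0.14, adjusted p = 1.9e-08 by edgeR), the granzyme genes GZMA by 0.91 and GZMB by 0.89, and FCGR3A, the gene of CD16, by 0.85. The late gene with a lower value, KLRG1, named after its value was seen, was at 1.87 CPM after BIX-01294 and 2.42 CPM in DMSO (adjusted p = 0.244 by edgeR). At an unadjusted p under 0.05 edgeR found 0 late genes lower, and DESeq2 called 0 lower. Of the 8 tested early genes, 4 rose and 1 fell, with a median of 0.63. Among them the homing receptor gene CCR7 rose by 2.27 and KIT by 0.70, and CXCR3 fell by 0.84.

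Among 11 genes that BLIMP1 or HOBIT are known to repress, 4 rose and 2 fell after BIX-01294, where 18.4% of all genes tested did in each direction. The median of 0.70 was the value of SPIB alone, named after its value was seen. SPIB had 5 to 15 counts per library and did not pass (adjusted p = 0.266 by edgeR), and the next lower value was -0.07. By sign, 6 of the 11 were higher and 5 lower. Among those that rose were CCR7, which is also on the early list, BCL6, the factor that opposes BLIMP1, by 0.86 and PAX5, a B cell factor, by 0.86. The 2 that fell, named after their values were seen, were KLF2 (log2 fold change -1.14, adjusted p = 0.00156 by edgeR) and S1PR1 (-0.53, adjusted p = 0.0408 by edgeR), at 1.59 to 1.95 CPM and a mean of 3.81 CPM after treatment. KLF2 and S1PR1 let lymphocytes leave tissues.

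The counts of the next lists stand beside 18.4% of all genes tested that rose after BIX-01294 and 18.4% that fell. Of 18 upstream regulators, 5 rose and 7 fell, with a median of 0.04. RUNX3, which acts with T-BET in NK maturation, rose by 0.64, whereas STAT5B, which carries the IL-2 and IL-15 signal, fell by 0.57, TOX2 by 0.54 and IKZF1 by 0.55. The 14 cytokine inputs split into 5 that rose and 5 that fell, with a median of 0.03. IL18RAP rose by 0.92, IL2RG by 0.65 and SMAD3, which relays TGF-beta, by 0.57, and JAK1 fell by 0.27. Of 15 tested partners and corepressors, 2 rose and 9 fell, with a median of -0.27. The H3K27 demethylase gene KDM6B rose by 1.17, and RCOR1, named after its value was seen, by 0.47. EHMT2 fell as given above, WIZ, whose protein belongs to the EHMT2 complex, fell by 0.50 and SMARCA4, the gene of the remodeller BRG1, fell by 0.45. Of 11 tested paralogs, PRDM8 and ZEB1 rose by 0.48 and 0.29 and PRDM16 fell by 0.71, with a list median of 0.14. The pan-NK list was mixed, with 6 of 12 genes that rose, among them KLRD1 by 0.65 and PRF1 by 0.57, and 4 that fell, among them KLRC1 by 0.38, and a list median of 0.16.

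The human list counts also depended on the scaling. Scaled to the pan-NK genes, which lowered the median of all genes to -0.439, 6 late genes rose and 2 fell, 2 early genes rose and 1 fell, and 4 repressed genes rose and 5 fell. Under the same scaling 0 upstream regulators rose and 12 fell, 1 cytokine input rose and 7 fell, 1 partner rose and 12 fell, 0 paralogs rose and 5 fell, and 1 pan-NK gene rose and 5 fell. With 1 library left out, 8 late genes rose and 0 fell each time. The cytokine inputs that fell then numbered 3 to 5, the pan-NK genes that fell 2 to 4, the repressed genes that fell 1 to 2 and the paralogs that rose 1 to 3.

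Over the 6 human libraries, TBX21 was followed most closely by UBASH3A (Pearson r = 0.9993), PPP2R3B (0.9993) and TOX2 (0.9992), and ZEB2 by MEIOC (0.9994), RASGRP3 (0.9991) and CERT1 (0.9988). EOMES was followed by PHRF1 (0.9988), DDB1 and AP3D1, PRDM1 by NAF1 (0.9969), ADGRG6 and ALCAM, and ZNF683 by XXYLT1 (0.9974), MGRN1 and SLC22A23. Between 308 genes (EOMES) and 755 genes (TBX21) had r above 0.95. These libraries fall into 2 treatment groups, a split that the correlations also follow.

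Side by side, the members did not have the same pattern in the 2 experiments, which differ in species, in cell source and in how EHMT2 was removed or blocked, and whose difference was not tested. T-BET transcripts were higher with Ehmt2 deletion (0.90) and fell with BIX-01294 (-0.46), and those of EOMES were at 0.74, short of the threshold, and -0.17. The mouse call on T-BET was lost in 6 of 17 alternatives. With scaling to the pan-NK genes, whose own list median was 0.75, its log2 fold change was 0.137 (adjusted p = 0.553 by edgeR). ZEB2 transcripts were at 0.16 in KO NK cells, with an upper bound of 0.38, and rose by 0.80 in treated NK92MI cells. BLIMP1 transcripts were at 0.18 and 0.48, and those of HOBIT at 0.17 and -1.50.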

How the data were processed

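RNA-seq of polyadenylated RNA was analysed for sorted splenic NK cells (3 WT, 3 KO) and NK92MI cells (3 DMSO, 3 BIX-01294). Per the submitters' processing notes and the methods, the authors trimmed reads with fastp 0.23.4, aligned them with STAR 2.7.11b to GRCm38/mm10 or GRCh38/hg38, counted them per gene with HTSeq 2.0.3 and deposited the counts under gene symbols, unnormalized. The annotation release and strand setting are not given in the sources used here. Human control columns have no link to the numbered DMSO samples and were used as a group.

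Each species was fitted alone in R 4.3.3 with edgeR 4.0.16 (TMM, filterByExpr, quasi-likelihood test, two-sided, Benjamini-Hochberg over all genes tested), and genes passed at an adjusted p under 0.05. The study's own test, DESeq2, and its thresholds were alternatives. The biological coefficient of variation was 18.2% in mouse and 7.55% in human. The procedure was tested on simulated data. Within-library ratios used 0.5 added counts and exact permutation tests (scipy 1.17.1). Scaling to the pan-NK genes used their summed counts, whereas ratios to the pan-NK list used its geometric mean. Gene positions, transcript lengths and strand overlaps come from GENCODE on these builds, whose release may differ from the authors' annotation. Promoters come from RefSeq.

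The members and gene lists were chosen with earlier results of these data known. All 5 members are named in each species. Of each list up to 4 genes that passed are named, those with the smallest adjusted p (the 2 with the smallest adjusted p where fewer than 2 passed), with Ehmt2, Zeb1 and their human forms. For likeness, the 3 genes with the largest correlation are named. Some genes that these rules pick are not reported here. Alternatives were DESeq2 1.42.0 and its size factors, library totals, scaling to the pan-NK genes, no low-count filter, a minimum mean CPM of 1, limma-voom (limma 3.58.1), the study's thresholds, each library left out, the replicate number as a block and, for ratios, 1 added count. Robust dispersion and DESeq2 with the study's thresholds were added after the data were seen. The H3K9me2 data were not analysed here.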

Additional observations from a re-analysis of the deposited data

How the results depend on the processing

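In mouse, 1565 genes passed in edgeR and 3094 in DESeq2, 8997 with scaling to the pan-NK genes, 0 at the study's thresholds (4719 had an unadjusted p under 0.05) and 0 to 3530 with 1 library left out. The genes that passed numbered 0 without KO replicate 2 (3208 at an unadjusted p under 0.05) or KO replicate 3 (3287), 14 without WT replicate 3, 99 without WT replicate 1 and 3530 without WT replicate 2. Members that rose numbered 0 to 2 with 1 library left out, 2 in DESeq2, 0 at the study's thresholds in edgeR and 1 (Tbx21) at these in DESeq2. Scaling to the pan-NK genes moved the median log2 fold change of all genes to -0.799 and called 0 members higher and 2 lower. Under it Zeb2 was at -0.674, Prdm1 at -0.600 and Zfp683 at -0.638, all above that median, and Tbx21 was at 0.137 (adjusted p = 0.553 by edgeR). Zfp683 also changed sign without KO replicate 2 (-0.0373) and without WT replicate 3 (-0.0033), in a range up to 0.3489. In human, 4692 genes passed, 7921 with pan-NK scaling (median of all genes -0.439), 1485 at the study's thresholds and 1451 with DESeq2 at these. Members that rose numbered 1 under each of these settings, and members that fell 1 at the study's thresholds with either tool. PRDM1 did not pass with pan-NK scaling (0.056, adjusted p = 0.704 by edgeR). This scaling used the sum of the pan-NK counts, in which GZMA, itself higher by 0.91, had the highest level. The ratios used the geometric mean of the list, against which PRDM1 was higher by 0.33 without overlap. Of the mouse ratios, those without overlap numbered 3 to 5 with 1 library left out (5 without WT replicate 1), and 3 small differences changed sign, Zfp683 to Prdm1 (-0.21 to 0.272), Zeb2 to Zeb1 (-0.014 to 0.241) and Eomes to pan-NK (-0.065 to 0.122). Every human ratio kept its direction in 7 of 7 alternatives. The causes were not tested. With the replicate number as a block, 3222 mouse genes passed, among them 2 members that rose (Tbx21 and Eomes), but no label says that same-numbered samples were paired. Their deviations from the group means correlated at 0.281, 0.352 and -0.188, and those of differently numbered samples at -0.436 to 0.284. With 3 libraries per group, these values cannot decide whether the numbers pair the samples. No paired analysis was possible in human because no label links the numbers of the control columns to the numbered DMSO samples. Depth limited ZNF683 most, at 44 to 191 counts per library, and counting error is included in the fits.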
